A study of Drosophila melanogaster with 72 samples.

Results

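Embryos of Drosophila melanogaster in which IntS9 was mislocalized were compared with wild type embryos (WT) of the same experiment, both collected in the window from 1 to 1.5 h. The comparison rests on 4 of the 72 libraries of the series, 2 labelled mutant with mislocalized IntS9 and 2 labelled WT, which were chosen by their labels and not by a measured value. Each table held 16680 genes, and 9217 of them passed a filter on low counts and were tested. The series, per its title and design text, asks how IntS11, a subunit of the Integrator complex, acts on the activation of the zygotic genome. Per the labels, the tissue was whole embryo, and total RNA was depleted of ribosomal RNA before strand-specific libraries were made. The labels give neither the allele, tag or driver by which IntS9 was mislocalized, nor the genotype of the parents, the strain of the WT embryos or the number of embryos in a library. Other groups used here had 2 libraries each: the same mutant and WT at 0 to 0.5 h and at 2.5 to 3 h, embryos with mislocalized IntS11 and their own WT at 1 to 1.5 h, and embryos given alpha-amanitin and their own control at 1 to 1.5 h. The dose and route of alpha-amanitin, a toxin that blocks RNA polymerase II, are not in the labels either.

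Integrator is a large complex that associates with RNA polymerase II near the start of genes. Its cleavage module is made of the endonuclease IntS11, its partner IntS9, which resembles it but lacks the active site, and the scaffold IntS4, and a further module carries the phosphatase PP2A. The complex cuts nascent RNA, which forms the 3′ ends of the spliceosomal U RNAs and ends transcription early at a set of protein-coding genes. An early fly embryo runs on RNA and protein laid down by the mother, and its own genome is switched on during the rapid nuclear divisions, first at a small set of genes and then widely at cellularization.

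Total counts were between 15398093 and 21331190 in the 4 libraries, and 10052 to 11107 genes had a count. Spearman's correlation of log CPM across genes was 0.998 within each group and 0.942 to 0.946 between the groups, as a description of these libraries. Levels are given as CPM, the count of a gene scaled to library size (TMM), with the value of each library, and changes as the log2 ratio of mutant over WT with its standard error (SE, n = 2 libraries a group). A gene is said to rise or fall where the quasi-likelihood test of edgeR gave a Benjamini-Hochberg adjusted p under 0.05 over all 9217 genes. The largest adjusted p among the genes so described was 0.039. In whole embryos, fewer cells that make an RNA and less of that RNA per cell cannot be told apart.

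Of the 9217 genes, 2882 (31.3%) were higher and 2597 (28.2%) lower in the mutant, 59.4% in all. By at least 2-fold, 1242 genes (13.5%) were higher and 931 (10.1%) lower, and the median change over all genes was 0.0031. Many of the called changes were small, and the common coefficient of variation between libraries was 0.0462. With size factors in place of TMM the split turned to 2601 higher and 2894 lower. The genes lowered at least 2-fold had a median WT level of 3.39 CPM and 0.196 CPM in the mutant, whereas the genes raised at least 2-fold went from 0.188 to 2.37 CPM, and the median level of all tested genes in WT was 39.9 CPM.

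**Figure D1:**
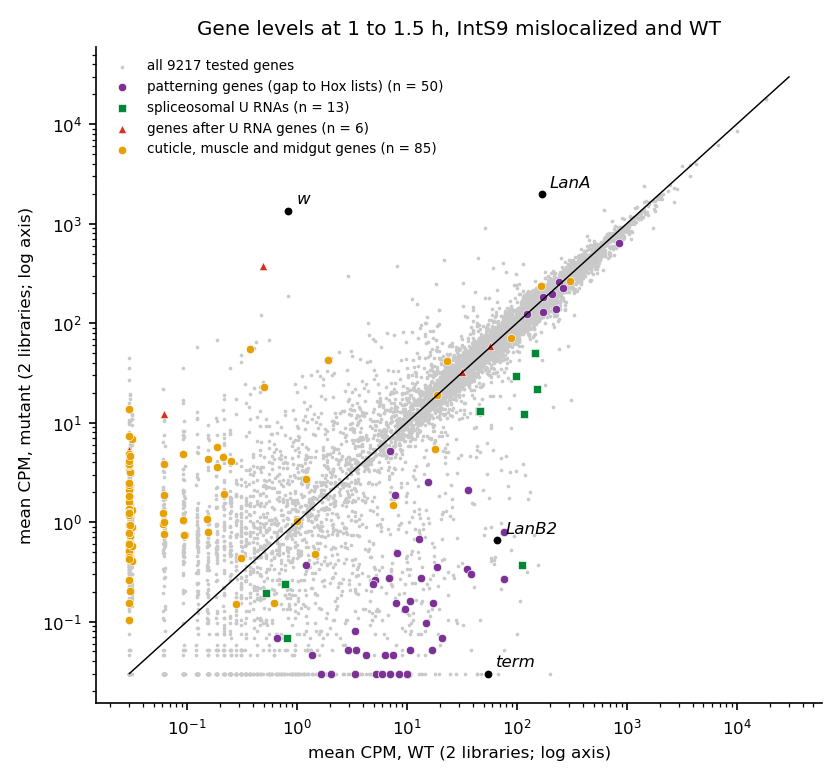
Mean CPM of each of the 9217 tested genes in the 2 WT libraries (x axis) and in the 2 mutant libraries (y axis), both on log axes. Values of 0 are drawn at the edge of the point cloud, and the line marks equal levels. Patterning genes and spliceosomal U RNAs lie below the line or close to it, and cuticle, muscle and midgut genes mostly above it. The labelled gene w, at 0.915 and 0.761 CPM in WT, lies far above the line.

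The targeted gene was examined first. IntS9 RNA stood at 53.2 and 48.97 CPM in WT and 63.95 and 68.7 CPM in the mutant, a rise of 0.38 ± 0.066. Since mislocalization acts on the protein, the level of the RNA does not check the labels. Of 17 Integrator subunits, 7 rose and 4 fell, where 31.3% of all genes rose and 28.2% fell. The other 6 were not called, and no subunit changed by as much as 2-fold. IntS12, a PHD finger subunit, rose most among them, from 44.2 and 47.9 to 85.6 and 88.4 CPM (0.92 ± 0.068), and asun, IntS4 and IntS11 rose by 0.49, 0.33 and 0.29. IntS1, the large scaffold subunit, went from 174 and 175 to 117 and 115 CPM (-0.59 ± 0.052), and the PP2A catalytic subunit mts changed by -0.28 ± 0.049. The IntS11 mislocalization line showed another order: IntS11 RNA changed there by -0.54 ± 0.060, and the difference between both effects was 0.82 ± 0.084 (edgeR, adjusted p = 2.14e-07).

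Spliceosomal U RNAs, the classic substrates of Integrator, were lower. Of 30 members, 13 were tested and 12 of these fell, where 28.2% of all genes fell. The median was -1.74, and the summed level went from 837 and 901 CPM in WT to 169.8 and 214 CPM in the mutant. The size of the fall depended on the library, with a median of -1.57 without mutant replicate 1 and -2.68 without mutant replicate 2. Counts were equal to those of another member for 5 of the 13, which leaves 10 distinct profiles, and 15 of the 30 members had 0 counts in all 4 libraries, so the values of single copies are uncertain. U11 and U12 RNA, which recognise the rare minor introns, are single genes. U11 (3L, 3893056 to 3893330, minus strand, here and below in the BDGP6.54 annotation) was at 149 and 155 CPM in WT and 18.7 and 24.8 CPM in the mutant (-2.79 ± 0.22). U12 was at 115 and 116 CPM in WT and 9.86 and 14.3 CPM in the mutant (-3.24 ± 0.25). For both RNAs the groups lay far apart.

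The copy snRNA:U2:34ABa (2L, 13211925 to 13212116, minus strand) of the U2 RNA, which pairs with the branch point of introns, went from 109.8 and 115 CPM in WT to 0.0577 and 0.687 CPM in the mutant (-8.08 ± 0.55). The copies snRNA:U2:34ABb and snRNA:U2:34ABc, which had equal counts, were at 141 and 155 CPM in WT and 46.8 and 54.6 CPM in the mutant (-1.54 ± 0.28). The values assigned to these U2 copies differed widely in the size of the fall, in both mutant libraries. As values of single copies are uncertain, a difference between the copies themselves was not tested.

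Genes that begin after a U RNA gene were raised in part. On the same strand and within 5 kb, 8 genes in the tables follow a U RNA gene. Of these, 6 were tested and 4 rose, where 31.3% of all genes rose. Of the 6, 3 had 3 or fewer counts in one of the groups. They passed the filter on low counts through libraries in which they are high, so the count of calls is no support. Without the filter, 4 of 7 were higher. CG15482 (2L, 13210773 to 13211814, minus strand), 111 bases after snRNA:U2:34ABa, was at 0.6102 and 0.381 CPM in WT and 382 and 375 CPM in the mutant (9.55 ± 0.11). It was thus close to absent in both WT libraries and among the better expressed genes in both mutant libraries. CG13962, 1082 bases after snRNA:U2:38ABa, had 0 and 0 CPM in WT and 5.19 and 5.41 CPM in the mutant, at least 56.9-fold higher, where the bound sets WT at 3 counts over the group. CG16820, 1258 bases after snRNA:U5:34A, which itself had 0 counts in all 4 libraries, had 1 count in each WT library (0.06102 and 0.0634 CPM) and 12.3 and 11.96 CPM in the mutant. The noncoding lncRNA:CR45348, 3441 bases after snRNA:U1:21D, had 0 and 0 CPM in WT and 1.73 and 0.917 CPM in the mutant. The other tested genes did not differ detectably and were looked up after the values were seen: ND-B17, 479 bases after snRNA:U5:35D, had a log2 ratio of 0.048 ± 0.082 (edgeR, adjusted p = 0.637) and mRF1, 3949 bases after snRNA:U2:34ABb, one of 0.031 ± 0.078 (adjusted p = 0.7505). No source used here states if reads were assigned to genes by strand.

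**Figure D2:**
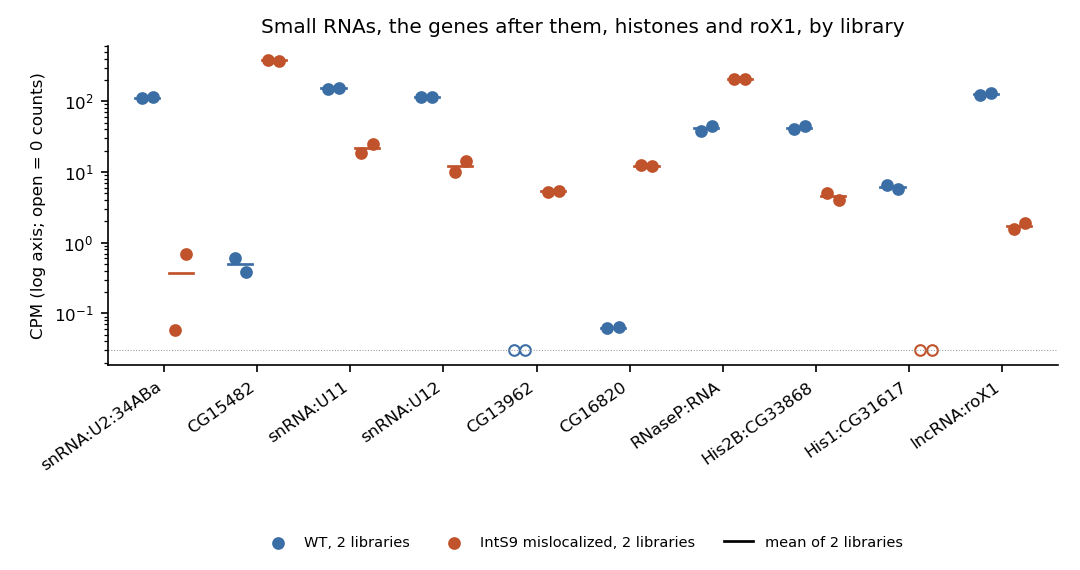
CPM (log axis) of U RNAs, of genes that follow U RNA genes, of RNase P RNA, of 2 histone genes and of roX1 in each of the 2 WT and 2 mutant libraries, with the mean of each pair as a line and open points for 0 counts. The libraries of the groups do not overlap at any of the 10 genes, with 109.8 and 115 CPM of snRNA:U2:34ABa in WT and 382 and 375 CPM of the following gene CG15482 in the mutant.

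These changes were compared with the other treatments in a joint fit of 8540 genes, in which all 3 comparisons have libraries of their own. With mislocalized IntS11, snRNA:U2:34ABa changed by -7.99 ± 0.22 and CG15482 by 7.53 ± 0.12. With alpha-amanitin the log2 ratio of snRNA:U2:34ABa was 0.039 ± 0.11, which was not called. The effect on snRNA:U2:34ABa did not differ detectably between IntS9 and IntS11 (-0.096 ± 0.65, adjusted p = 0.9302), whereas CG15482 rose further with IntS9 by 2.02 ± 0.40 (adjusted p = 3.81e-04) and the effect on U12 was lower with IntS9 (-1.89 ± 0.20, adjusted p = 1.24e-05). Over the 13 U RNAs, 1 differed between IntS9 and IntS11 and 9 were lower with IntS9 than with alpha-amanitin, where 48.1% of all genes differed in either direction and 18.3% were lower.

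RNase P RNA, the catalytic RNA that trims tRNA precursors, rose from 38.1 and 45.2 CPM to 204 and 207 CPM (2.30 ± 0.26), a direction opposite to the U RNAs. Of 288 snoRNAs and scaRNAs, guides of RNA modification, 20 were tested, 7 fell and none rose, but without mutant replicate 1 only 2 fell. The copies snoRNA:U3:54Aa and snoRNA:U3:54Ab, equal in counts, were at 48.7 and 48.5 CPM in WT and 21.1 and 25.6 CPM in the mutant (-1.05 ± 0.25), a call that is also lost without that library.

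The summed level of replication-dependent histone genes, whose messages end in a stem loop in place of a poly(A) tail, was lower. Of 111 members, 89 had 0 counts in all 4 libraries and 13 were tested. All 13 fell, where 28.2% of all genes fell, but 11 shared their counts with another copy, which leaves 5 distinct profiles. Of the 13, 12 had 3 or fewer counts in one of the groups. They passed the filter on low counts through libraries in which they are high, so the count of calls is no support. Without the filter, 13 of 22 were lower. The fitted median was -8.86, or -5.47 with genes at 3 or fewer counts in a group set to their bound, and the summed level went from 82.6 and 82.3 CPM to 5.07 and 3.99 CPM. His2B:CG33868 was at 39.97 and 44.8 CPM in WT and 5.07 and 3.99 CPM in the mutant (-3.24 ± 0.13). The linker histone copy His1:CG31617 had 6.47 and 5.65 CPM in WT and no counts in the mutant, at least 79.2-fold lower. Variant histones, whose messages are polyadenylated or stored by the mother, fell in 6 of 6 cases by less, with a median of -0.32, His3.3B at -0.50 and the largest fall at His4r (-0.86). The smallest was that of the embryonic linker histone BigH1 (-0.16 ± 0.063, named after its values were seen), and 5 of the 6 were called with scaling by total counts or without WT replicate 1, WT replicate 2 or mutant replicate 2. With alpha-amanitin the replication-dependent histone genes went the other way: of 12 in the joint fit, 11 were higher and 1 lower. All 12 were lower with IntS9 than with alpha-amanitin or with IntS11 in tests of the difference, where 18.3% and 23.3% of all genes were lower. The counts of these differences have the same limit at low counts.

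Zygotic genes of the blastoderm embryo were lower as a group. Of 21 genes specific to this stage, 20 fell and none rose, with a median of -7.12 when genes at 3 or fewer counts in a group are set to their bound, and their summed level went from 1976 and 1942 CPM to 816 and 824 CPM. At 0 to 0.5 h the mean sum was already 1621 CPM in WT and 770 CPM in the mutant. The effect at 1 to 1.5 h was higher than at 0 to 0.5 h in 2 of the 21 genes and lower in 1. Ama, an immunoglobulin-type adhesion protein, went from 103 and 98.1 CPM to 0.0577 and 0.0917 CPM, or 3 counts over both mutant libraries. The Patched-related gene Ptr went from 80.97 and 84.3 to 2.08 and 2.57 CPM (-5.13 ± 0.10), and neither gene had a mutant library near the WT level. Of the cellularization genes, slam, which guides membrane growth, kept much of its RNA, with 484 and 451 CPM in WT and 268 and 264 CPM in the mutant (-0.81 ± 0.060). Sry-alpha, which acts in the same process, went from 87.5 and 83.2 to 14.01 and 13.9 CPM (-2.61 ± 0.075), while nullo had 10.4 and 10.8 CPM in WT and no counts in the mutant, at least 139-fold lower.

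The segmentation hierarchy was lower at each tier. Of 11 gap genes, which respond to the maternal gradients, 10 fell; so did 10 of 11 pair-rule genes, 12 of 14 segment polarity genes and 14 of 14 Hox genes and bithorax transcripts. Medians, taken in the same way, were -4.57, -6.61, -5.40 and -5.47. At 0 to 0.5 h gap genes summed to 474 CPM in WT and 483 CPM in the mutant. Pair-rule genes then summed to 262 and 182 CPM. Segment polarity genes summed to 1509 and 1140 CPM, and Hox genes and bithorax transcripts to 234 and 149 CPM. The effect was lower at 1 to 1.5 h than at 0 to 0.5 h for 1, 0, 3 and 1 genes of these lists, in this order. The terminal gap gene tll had 11.1 and 9.26 CPM in WT and no counts in the mutant, at least 133-fold lower, and the pair-rule gene ftz with 9.95 and 9.96 CPM was at least 129.9-fold lower. Kr was at 35.5 and 36.98 CPM in WT and 1.903 and 2.29 CPM in the mutant (-4.09 ± 0.11). Genes with a maternal supply moved little, such as hb, a gap gene that the mother also transcribes, at 257 and 275 CPM in WT and 224 and 228 CPM in the mutant (-0.24 ± 0.072, a call that is lost without WT replicate 2 or mutant replicate 1), arm, the fly beta-catenin, at -0.42 ± 0.052, and the Hedgehog signal transducer smo at -0.44 ± 0.061.

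Among segment polarity genes, wg, a Wnt ligand, went from 20.4 and 21.7 to 0 and 0.137 CPM and ci, the transcription factor of Hedgehog signalling, from 69.1 and 84.2 to 0.865 and 0.733 CPM (-6.58 ± 0.16). The Hox cofactor hth went from 34.2 and 36.6 to 0.404 and 0.275 CPM (-6.71 ± 0.15), whereas exd, its partner, which is maternally supplied, was at 224 and 231 CPM in WT and 129.6 and 149 CPM in the mutant (-0.70 ± 0.063). The bithorax transcript lncRNA:iab4 had 5.797 and 6.15 CPM in WT and no counts in the mutant, at least 77.95-fold lower. In each of these genes both mutant libraries lay below both WT libraries.

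Dorsoventral genes fell in the same way with a few exceptions. Of 17 mesoderm genes 11 fell and 2 rose, of 16 neurogenic ectoderm genes 13 fell and 1 rose, and of 17 dorsal ectoderm and amnioserosa genes 15 fell and 1 rose. The mesoderm determinant twi had 20.9 and 18.8 CPM in WT and no counts in the mutant, at least 259-fold lower, and sna, its target, went from 25.99 and 25.5 to 1.44 and 1.97 CPM (-3.89 ± 0.14). SoxN, a neurectoderm factor, went from 26.5 and 29.3 CPM to a single count in 1 mutant library (0 and 0.0458 CPM). The BMP ligand scw went from 16.1 and 16.3 to 0 and 0.229 CPM (-6.91 ± 0.28), and the EGF receptor gene Egfr from 89.5 and 83.7 to 3.46 and 2.98 CPM (-4.76 ± 0.089). The exceptions were rho, a protease that releases EGF ligands, which rose from 4.52 and 3.996 to 22.7 and 26.2 CPM (2.52 ± 0.13), kay, the fly Fos, which rose by 1.55 ± 0.089, and fog, a ligand that drives apical constriction, which rose by 0.33 ± 0.075. T48, another gene of apical constriction that was picked after its values were seen, went from 37.7 and 36.9 to 55.4 and 55.3 CPM (0.57 ± 0.071).

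Sex determination and dosage compensation genes also changed. Of 10 X counting genes and their partners 9 fell, with a median of -0.58: upd1, an X-linked signal, went from 13.9 and 13.6 to 0.231 and 0.0917 CPM (-6.42 ± 0.25), and the switch gene Sxl from 148 and 171 to 109 and 113 CPM (-0.52 ± 0.065). The noncoding lncRNA:roX1 (X, 3857230 to 3862697), which guides the dosage compensation complex to the X chromosome, went from 121 and 132 CPM in WT to 1.56 and 1.88 CPM in the mutant (-6.18 ± 0.12). Of the protein subunits of that complex, msl-2 went from 24.2 and 23.1 to 5.02 and 5.18 CPM (-2.21 ± 0.10), while mof, its acetyltransferase, rose from 112 and 117 to 182 and 182 CPM (0.67 ± 0.053). The pioneer factor zld, a maternal activator of the genome, was at 543 and 572 CPM in WT and 398 and 415 CPM in the mutant (-0.46 ± 0.063), and of 13 such regulators 7 fell and 1 rose.

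**Figure D3:**
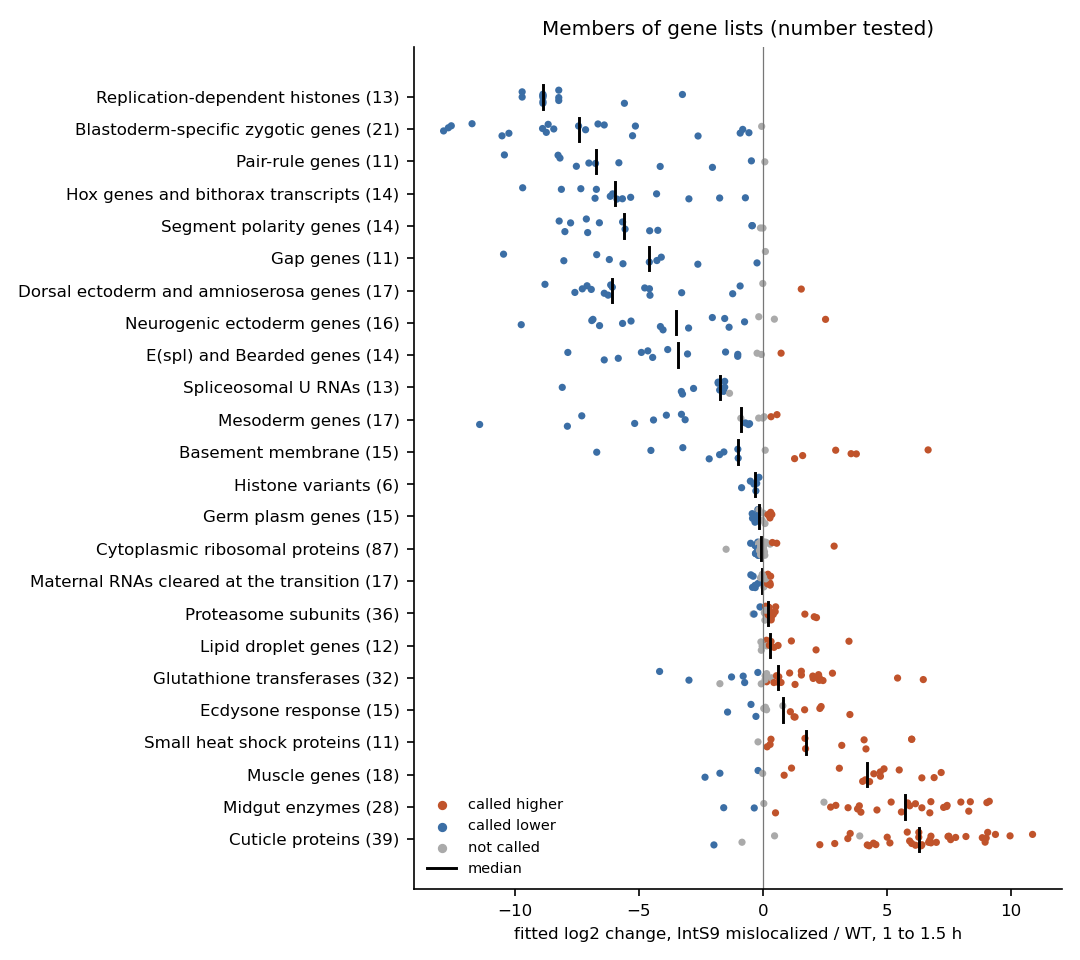
Fitted log2 changes of mutant over WT at 1 to 1.5 h (x axis) for the tested members of 24 gene lists (rows, with the number tested), coloured by call, with a black bar at each median. Histone and blastoderm genes, 13 and 21 tested members, stand at the low end and cuticle genes, 39 tested members, at the high end, while maternal RNAs and ribosomal protein genes stay near 0. Fitted values of genes with 0 counts in a group depend on the prior count and are no bounds.

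Basement membrane genes split. This sheet of laminin, collagen IV and proteoglycan underlies embryonic epithelia, and laminin is a trimer of an alpha, a beta and a gamma chain. Of 15 genes, 6 rose and 8 fell. LanA (3L, 6203831 to 6218022), an alpha chain, was at 171 and 166 CPM in WT and 1973 and 1989 CPM in the mutant (3.55 ± 0.064). LanB1, the beta chain, was at 87.2 and 89.7 CPM in WT and 26.3 and 26.5 CPM in the mutant (-1.74 ± 0.069). LanB2 (3L, 9614914 to 9623980), the gamma chain, was at 68.8 and 64.7 CPM in WT and 0.865 and 0.458 CPM in the mutant (-6.69 ± 0.13). Chains that assemble into laminin thus moved in opposite directions, with no overlap between the groups for any of them. Tig, a matrix protein of muscle attachments, rose from 3.17 and 2.73 to 309 and 288 CPM (6.65 ± 0.092), and mfas, a secreted adhesion protein, from 18.9 and 17.95 to 249 and 252 CPM (3.76 ± 0.063). Ppn, a matrix proteoglycan, fell from 46.01 and 47.1 to 5.65 and 4.399 CPM (-3.22 ± 0.12).

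Levels of LanA were similar in the mutant at all windows. At 0 to 0.5 h it stood at 1997 and 1993 CPM in the mutant and 13.3 and 12.9 CPM in WT, and at 2.5 to 3 h at 2029.5 and 2277 CPM in the mutant and 273 and 275 CPM in WT. The effect of 7.25 ± 0.082 at 0 to 0.5 h was larger than that at 1 to 1.5 h by 3.70 log2 units (difference -3.70 ± 0.098, adjusted p = 9.81e-16). Alpha-amanitin changed LanA by -4.50 ± 0.34, the opposite direction, though its control libraries held only 3.11 and 3.47 CPM. Mislocalized IntS11 changed LanA, Tig and mfas by 3.03 ± 0.059, 6.37 ± 0.18 and 3.57 ± 0.11, and LanB2 by -1.95 ± 0.14, which was less than with IntS9 (difference -4.74 ± 0.26, adjusted p = 3.14e-11).

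Targets of Notch signalling in the E(spl) and Bearded clusters depended on the window. Of 14 genes tested, 11 fell at 1 to 1.5 h and 1 rose, and in 11 of the 14 the effect was lower than at 0 to 0.5 h, against 7.29% of all genes. Tom, a Bearded family gene, was at 115 and 113 CPM in WT and 3.92 and 3.76 CPM in the mutant (-4.89 ± 0.10). The repressor E(spl)m7-HLH was at 18.7 and 18.1 CPM in WT and 30.6 and 30.5 CPM in the mutant (0.73 ± 0.096). At 0 to 0.5 h it had been at 3.82 and 3.24 CPM in WT and 27.9 and 31.97 CPM in the mutant (3.08 ± 0.13), and the mutant levels of both windows overlap. Neighbours that were picked after their values were seen went from above WT to below it: E(spl)m8-HLH from 2.04 ± 0.32 to -1.01 ± 0.25 and E(spl)mgamma-HLH from 1.46 ± 0.20 to -1.50 ± 0.13. In WT the summed level of the list was 129 CPM at 0 to 0.5 h and 285 CPM at 1 to 1.5 h, and in the mutant it was 72.3 and 65.1 CPM.

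The summed level of small heat shock genes was higher, from 1432 and 1450 CPM in WT to 2665.5 and 2735 CPM in the mutant. Of the 11 tested, 3 had 3 or fewer counts in one of the groups. They passed the filter on low counts through libraries in which they are high, so their calls are no support. With only the groups compared in the fit, 7 of 8 were higher, where 31.3% of all genes rose in the main fit. Of 11 small heat shock genes 10 rose, and of 18 genes of Hsp70, Hsp90 and their cofactors 8 rose and 3 fell, or 1 without mutant replicate 1. Hsp23 was at 55.2 and 47.6 CPM in WT and 902 and 925 CPM in the mutant (4.15 ± 0.071), and Hsp22, a mitochondrial chaperone, at 32.6 and 37.5 CPM in WT and 115 and 116 CPM in the mutant (1.72 ± 0.067). Hsp26 and Hsp27, which the mother deposits in quantity, rose by 0.29 and 0.33. The heat shock RNA lncRNA:Hsromega fell from 26.97 and 32.7 to 10.2 and 11.4 CPM (-1.46 ± 0.10) and Hsp70Aa, one of several near-identical copies and therefore uncertain, rose by 0.46 ± 0.066.

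Of 32 glutathione transferases, which conjugate toxic compounds, 20 rose and 6 fell. Of all genes 31.3% rose and 28.2% fell, and the counts of JNK response and autophagy genes below stand beside the same shares. GstT3 rose from 16.7 and 12.4 to 75.5 and 80.6 CPM (2.42 ± 0.11), and GstE6 fell from 77.9 and 75.9 to 31.8 and 32.3 CPM (-1.26 ± 0.072). Of 9 JNK response genes 5 rose and 2 fell: puc, the phosphatase that limits the kinase, rose by 1.02 ± 0.084, and bsk, the kinase itself, fell by 1.42 on the log2 scale (from 17.02 and 19.2 to 6.34 and 7.103 CPM). The autophagy gene Atg18b rose from 21.2 and 22.01 to 415 and 444 CPM (4.31 ± 0.071), but of 20 autophagy genes 3 rose and 7 fell. The 24 antimicrobial and stress peptide genes together summed to 1.46 and 1.46 CPM in WT and to 11.4 and 12.3 CPM in the mutant. Only 6 of them passed the filter on low counts, each with 3 or fewer counts in one of the groups, so the calls among these 6 are no support, and without the filter 10 of 22 were higher and 1 was lower.

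Lipid droplet genes were raised, while ecdysone genes went both ways. Of 12 lipid droplet genes 8 rose and none fell; Jabba, which binds histones to droplets, went from 635 and 607 CPM to 1427 and 1327 CPM (1.15 ± 0.055), and the fatty acid synthase FASN1 from 7.69 and 7.29 to 32.8 and 33.4 CPM (2.14 ± 0.10). The sterol regulator SREBP rose from 142 and 139.8 to 214 and 217 CPM (0.61 ± 0.055). Of 15 ecdysone response genes 7 rose and 3 fell, with the nuclear receptor Eip75B at 31.2 and 30.6 CPM in WT and 74.04 and 73.8 CPM in the mutant (1.26 ± 0.066). Of 9 genes of ecdysone synthesis 2 rose and 6 fell; the hydroxylase dib went from 10.6 and 9.96 CPM to a single count in the mutant, and Cyp18a1, which inactivates the hormone, from 0.366 and 0.381 to 9.98 and 11.5 CPM (4.83 ± 0.26).

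Maternal RNAs that are cleared were called in both directions, at shares near those of all tested genes. Of 17 RNAs that are cleared at the transition to zygotic control, 6 rose, 6 fell and 5 were not called, with a median of -0.016. Of all genes, 31.3% rose and 28.2% fell. The germ plasm organiser osk was at 1171 and 1214 CPM in WT and 1394 and 1512 CPM in the mutant (0.28 ± 0.057), and nanos, a posterior repressor, at 857 and 876 CPM in WT and 674 and 726 CPM in the mutant (-0.31 ± 0.051). Of 21 maternal axis genes 8 rose, 4 fell and 9 were not called, with a median of 0.10 and the Toll receptor gene Tl at -0.54 ± 0.070. The changes of at least 2-fold were 1 higher and 2 lower, at genes of the dorsoventral system that were named after their values were seen. The protease gene ndl rose from 0.488 and 0.444 to 23.2 and 22.5 CPM (5.59 ± 0.18), the sulfotransferase gene pip fell from 4.82 and 4.69 to 0.173 and 0.229 CPM (-4.49 ± 0.34), and wbl, whose protein acts together with that of pip, fell from 1.95 and 1.903 CPM to a single count in the mutant. Of 15 germ plasm genes 4 rose and 7 fell, and of 24 piRNA pathway genes 11 rose, or 7 without WT replicate 1 or mutant replicate 2, and 6 fell, with squ rising from 41.6 and 45.9 to 109 and 92.3 CPM (1.20 ± 0.11) and the Argonaute protein gene AGO3 falling from 175 and 203 to 106 and 125 CPM (-0.70 ± 0.14). Of 20 cell cycle genes 11 fell and 4 rose (2 without WT replicate 2 or mutant replicate 2), with CycB at -0.32 ± 0.064, the CDK inhibitor dap at -0.56 ± 0.053 and the Cdc25 phosphatase stg, which rose, at 0.31 ± 0.063.

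Large housekeeping groups changed by small amounts. Of 36 proteasome subunits 27 rose and 2 fell, with a median of 0.21; Prosbeta2 was at 264 and 253 CPM in WT and 371 and 358 CPM in the mutant (0.50 ± 0.052). With size factors in place of TMM 21 rose, and without WT replicate 2 it was 17. Of 87 cytoplasmic ribosomal protein genes 3 rose and 20 fell, with a median of -0.089, but without WT replicate 1 only 3 fell and without mutant replicate 1 only 6. RpS5b, a paralog with high expression in the germ line, was an exception, from 757 and 703 to 1063 and 1086 CPM (0.56 ± 0.073).

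The summed levels of 3 lists of later-stage genes were higher in the mutant than in WT. The 95 cuticle protein genes summed to 2.75 and 2.66 CPM in WT and to 86.4 and 83.6 CPM in the mutant, the 19 muscle genes to 362 and 391 CPM against 505 and 468 CPM, and the 37 midgut enzyme genes to 266 and 249 CPM against 344 and 338 CPM. Of the 18 muscle genes tested 14 rose and 3 fell. Of the cuticle genes 39 were tested, 35 rose and 1 fell, and of the midgut genes 28 were tested, 24 rose and 2 fell. Of these tested genes 34 of 39 and 23 of 28 had 3 or fewer counts in one of the groups, so they passed the filter on low counts through libraries in which they are high, and their counts of calls are no support. Without the filter, 44 of 87 cuticle genes and 26 of 37 midgut genes were higher. Of these lists, 66 of 95, 2 of 19 and 22 of 37 members had 0 counts in both WT libraries. The muscle myosin gene Mhc was at 0.366 and 0.381 CPM in WT and 63.2 and 47.7 CPM in the mutant (7.18 ± 0.23), and the titin relative bt at 1.83 and 2.03 CPM in WT and 47.2 and 38.7 CPM in the mutant (4.47 ± 0.15).

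In WT these RNAs were present at 0 to 0.5 h. Cuticle genes summed to 100.5 and 95.2 CPM in the WT libraries at 0 to 0.5 h, and to 77.2 and 77.1 CPM in the mutant libraries. Mhc stood then at 83.6 and 73.4 CPM in WT and 50.02 and 51.1 CPM in the mutant, so that its WT level fell from 0 to 0.5 h to 1 to 1.5 h (-7.69 ± 0.22), while the change in the mutant was not called (0.13 ± 0.10). The effect was higher at 1 to 1.5 h for 14 of 18 muscle genes, against 6.65% of all genes. At 2.5 to 3 h Mhc was at 0.685 and 0.408 CPM in WT and 0.635 and 0.554 CPM in the mutant, which overlap in range, while cuticle genes summed to 12.8 and 11.6 CPM in WT and to 71.2 and 69.95 CPM in the mutant. Whether embryos or larvae of other ages in a collection had a part in these values was not tested.

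Markers of other cell types gave a mixed picture. Of 7 larval serum and fat body genes 5 rose (3 when only the groups compared were fitted) and 2 fell, while the sum of the list was 92.8 CPM in WT and 70.6 CPM in the mutant. Of these 7 genes, 4 had 3 or fewer counts in one of the groups, so their count of calls is no support. Of 9 hemocyte genes 3 rose and 5 fell: the clotting protein gene Hml rose from 0.183 and 0.0634 to 58.1 and 55.9 CPM (8.76 ± 0.19), while srp, the blood cell determinant, fell from 21.1 and 23.7 to 8.25 and 7.84 CPM (-1.48 ± 0.12). Of 23 follicle cell and eggshell genes 5 were tested, and 15 members had 0 counts in both WT libraries and 7 in both mutant libraries. Of the 5 tested, 3 had 3 or fewer counts in one of the groups, so calls in this list are no support either. The border cell factor slbo rose from 0.122 and 0 to 23.1 and 20.7 CPM, and Tbh, a hydroxylase of octopamine synthesis, from 0.122 and 0.0634 to 35.5 and 35.9 CPM, with 2 and 3 counts over the WT libraries. Of the other tested members, upd1 fell, as given above, and 2 were not called.

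Among the largest changes, w stood apart by its level. The gene (X, 2790599 to 2796466) encodes an eye pigment transporter and is widely used as a marker on fly transgenes. It was at 0.915 and 0.761 CPM in WT and 1329.5 and 1378 CPM in the mutant (10.64 ± 0.11), at 1320.04 and 1277 CPM in the mutant at 0 to 0.5 h and 1580.3 and 1467 CPM at 2.5 to 3 h. With mislocalized IntS11 it rose by 10.18 ± 0.10, and with alpha-amanitin its log2 ratio of -0.89 ± 0.39 was not called. The labels do not give the w alleles or transgenes of any group, so the mislocalization of IntS9 and other differences between the lines cannot be told apart at this gene. The other largest rises by the naming rule started from no counts in WT. Mdr65, a transporter of the blood-brain barrier, reached 34.6 and 35.7 CPM, at least 378-fold higher, Swim, a secreted protein that binds the Wg ligand, 15.7 and 15.8 CPM, at least 169-fold, and the odorant binding protein gene Obp56d 9.28 and 10.1 CPM, at least 104-fold. The 3 largest falls by the same rule ended at no counts in the mutant: term with 55.04 and 53.7 CPM in WT was at least 710.1-fold lower, D, a Sox factor, with 47.4 and 47.8 CPM at least 621-fold, and Elba1, an insulator factor, with 46.4 and 41.3 CPM at least 573-fold.

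The genes lowered or raised at least 2-fold were also described by their structure. Of the protein-coding genes lowered, 19.3% had an annotated transcript without an intron, against 13.1% of those raised and 11.6% of all tested. For each of these genes the exons of the longest annotated transcript were summed. The median of this length was 2436.5 bases in the lowered, 1889 in the raised and 2094 in all tested genes. The X chromosome held 11.6% of the lowered, 16.4% of the raised and 16.96% of all tested genes. These shares are descriptions, and level, which also differed between the groups of genes, was not held constant.

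The comparison at 1 to 1.5 h was set beside the same comparison at 0 to 0.5 h, which has its own 4 libraries. At 0 to 0.5 h, 26% of all genes were higher and 26.5% lower, and of the genes raised or lowered at least 2-fold at 1 to 1.5 h, 79.2% were also higher and 63.6% also lower then. At 2.5 to 3 h, 63.8% and 95.7% were called in the same direction, where 40.4% of all genes were higher and 43% lower. The effect differed between 1 to 1.5 h and 0 to 0.5 h for 613 genes with a higher value (6.65%) and 672 with a lower one (7.29%). Without WT replicate 2 these counts were 325 and 464, and without mutant replicate 1 they were 385 and 458. The median effect of the raised genes was 2.53 at 0 to 0.5 h and that of the lowered genes -2.19.

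The same fit gives how each genotype changed from 0 to 0.5 h to 1 to 1.5 h. In WT 1492 genes rose (16.2%) and 2304 fell (25%), and in the mutant 265 rose (2.88%) and 1283 fell (13.9%). By at least 2-fold, 603 rose (6.54%) and 318 fell (3.45%) in WT, against 34 (0.369%) and 115 (1.25%) in the mutant. The msl-2 gene was at 17.96 and 18.4 CPM in WT and 6.497 and 6.99 CPM in the mutant at 0 to 0.5 h, and the WT level had risen by 0.38 ± 0.085 at 1 to 1.5 h where the mutant changed by -0.40 ± 0.13. Ppn rose by 3.81 ± 0.13 in WT and was not called in the mutant (0.48 ± 0.17), and ImpL2, an insulin antagonist, changed by 1.55 ± 0.098 and -0.52 ± 0.10; the differences were -3.34 ± 0.23 and -2.07 ± 0.14 (adjusted p = 2.57e-09 for both).

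**Figure D4:**
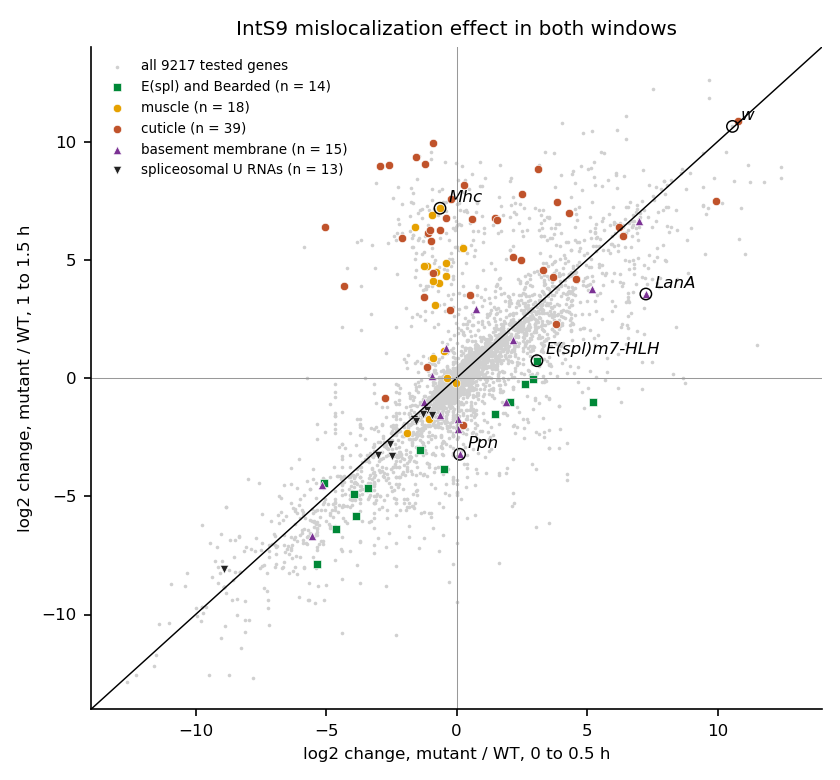
Log2 change of mutant over WT at 0 to 0.5 h (x axis) and at 1 to 1.5 h (y axis) for the 9217 tested genes (grey) and 5 gene lists, with the line of equal effects. Most of the tested muscle and cuticle genes lie above the line, with Mhc at -0.64 and 7.18, and most E(spl) and Bearded genes below it, with E(spl)m7-HLH at 3.08 and 0.73. The spliceosomal U RNAs lie close to the line.

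Mislocalization of IntS11, the endonuclease partner, gave related but not equal values. In the joint fit it raised 2409 genes (28.2%) and lowered 2747 (32.2%). Of the genes lowered at least 2-fold with IntS9 and present in the joint fit, 75.3% were lower and 2.3% higher with IntS11, and of those raised, 55.2% were higher and 1.84% lower. The effects differed for 2117 genes with a higher value with IntS9 (24.8%) and 1990 with a lower one (23.3%), 48.1% of all. Of 21 blastoderm genes, 14 had a lower effect with IntS9 than with IntS11 and 5 a higher one. For ftz the changes were -4.39 ± 0.15 with IntS11 and at least 129.9-fold lower with IntS9 (adjusted p of the difference = 3.67e-05). For lncRNA:roX1 the change was -3.15 ± 0.10 with IntS11, -3.04 ± 0.19 from that with IntS9 (adjusted p = 2.78e-10). Sry-alpha went the other way, at -4.11 ± 0.074 with IntS11 and -2.61 ± 0.075 with IntS9 (adjusted p = 2.81e-09). Ribosomal protein genes fell in 78 of 86 cases with IntS11, with a median of -0.48, and in 66 of the 86 the IntS9 effect was higher.

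The controls of the 3 experiments were not alike, at zygotic genes and at other lists. Blastoderm genes summed to 1986 and 1963 CPM in the WT libraries used for IntS9, to 4223 and 4172 CPM in those for IntS11 and to 972 and 976 CPM in the control libraries for alpha-amanitin. In the same order, cytoplasmic ribosomal protein genes summed to 82893 and 77734, 128320 and 115267, and 68081 and 68463 CPM. Spliceosomal U RNAs summed to 842 and 910, 1726 and 1444, and 698 and 870 CPM. The part of these control levels in the differences between treatments, and in the fall of ribosomal protein genes with IntS11, was not tested.

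Against alpha-amanitin the IntS9 effect was higher for 2103 genes (24.6%) and lower for 1560 (18.3%), 42.9% of all. Alpha-amanitin raised 1172 genes (13.7%) and lowered 1944 (22.8%), and of the genes lowered at least 2-fold with IntS9, 59.8% were lower with it. Egfr changed by -4.13 ± 0.16 with alpha-amanitin and -4.76 ± 0.089 with IntS9 (adjusted p of the difference = 0.06196). The toxin left little RNA of E(spl) and Bearded genes, a sum of 0.33 and 0.164 CPM against 73.5 and 80.8 CPM in its control, and 8 of 14 were higher with IntS9 than with it. The log2 ratios of slam and Jabba were 0.26 ± 0.051 and -0.038 ± 0.057 with alpha-amanitin, of which that of slam was called, against -0.81 ± 0.060 and 1.15 ± 0.055 with IntS9 (adjusted p = 2.01e-10 and 3.43e-10). Of the genes raised at least 2-fold with IntS9, 3.39% were higher and 8.14% lower with alpha-amanitin. The median level of these genes was 0.188 CPM in the WT of IntS9, and their median log2 ratio with alpha-amanitin was 0. Genes with few counts in an experiment can hardly be called there. The low shares thus do not show that alpha-amanitin left these genes unchanged.

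**Figure D5:**
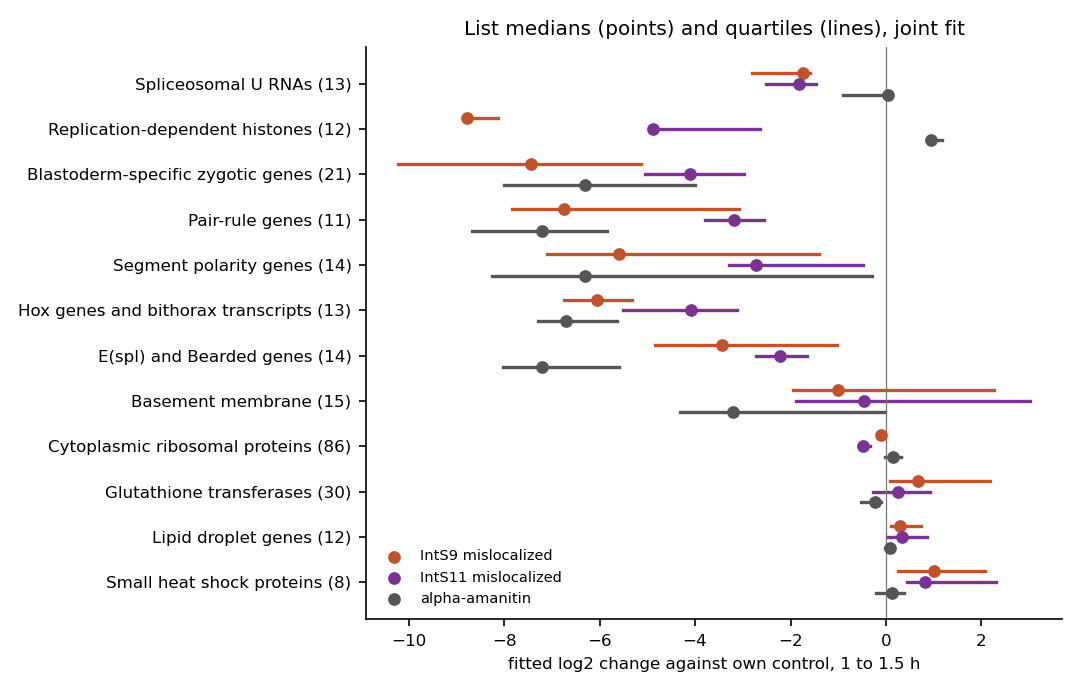
Median (points) and quartiles (lines) of the fitted log2 changes at 1 to 1.5 h for 12 gene lists under mislocalized IntS9, mislocalized IntS11 and alpha-amanitin, each against its own control in the joint fit, with the number of members beside each list. U RNAs are low with both mislocalizations and near 0 with alpha-amanitin (-1.83 with IntS11 and 0.039 with the toxin), and blastoderm, pair-rule and segment polarity genes are low in all 3.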

How the data were processed

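RNA was measured in embryos by strand-specific RNA-seq of rRNA-depleted total RNA, per the labels' protocols. The authors deposited 1 table per library with expected counts, TPM and FPKM for 16680 genes; per the submitters' processing notes the tools were Trimmomatic 0.39, STAR 2.7.10a, RSEM 1.3.1 and DESeq2 1.40.2 with build dm6. How reads were assigned by strand is not stated in these sources. The deposited expected counts were rounded to whole numbers. The authors' TPM values served only in the rule for the largest changes, and their deposited FPKM values were not used.

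Counts of the 12 IntS9 libraries were fitted together with edgeR 4.0.16 in R 4.3.3 (TMM scaling, filterByExpr, robust quasi-likelihood test, Benjamini-Hochberg adjustment, threshold 0.05), which gave 6 residual degrees of freedom. The differences from the effects of IntS11 and alpha-amanitin came from a joint fit of 12 libraries at 1 to 1.5 h. SE is the log2 change over the square root of the F statistic, and genes with F at 0 within rounding were given a p of 1. A group at 0 counts was set to 3 counts over its libraries for a lower bound of the fold. CPM and bounds cover counting of reads that carry no molecular identifiers. Gene names came mainly from RefSeq records, matched by transcript accession, symbol or synonym, and 16624 of the 16680 genes were matched. Positions and exons came from the Ensembl BDGP6.54 annotation, in which 16620 genes had a position. On simulated counts of 9062 genes with 200 changed, the same fit recovered 78% of 1.5-fold, 96% of 2-fold, 98% of 4-fold and 100% of 8-fold changes, and 7.46% of its calls were false. The changed genes were drawn only from those with a mean above 1 CPM, so these rates do not cover genes at lower levels. The labels do not say whether replicates came from separate collections, so p-values measure only the spread between these samples, which may be technical.

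The genes named were the Integrator subunits, the 12 largest rises and falls among called genes (TPM of both libraries beyond both of the other group, mean TPM of at least 5), and up to 6 called members of each list with the largest difference in CPM, from which a part was left out. The comparison, the members and the gene lists were chosen with earlier results of these data known. Alternatives were a fit of only the groups compared, DESeq2 1.42.0, DESeq2-type size factors or total counts in place of TMM, no filter, the replicate number as a block, and leaving out each library.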

Additional observations from a re-analysis of the deposited data

Results flagged for a closer look

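Between windows, the effect of mislocalized IntS9 at 1 to 1.5 h was higher than at 0 to 0.5 h for 613 genes and lower for 672, by the test of the difference in edgeR. Against IntS11 it was higher for 2117 and lower for 1990 genes, and against alpha-amanitin higher for 2103 and lower for 1560.

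Some of the genes named above were called in opposite directions in 2 comparisons, each with a tested difference. Against 0 to 0.5 h, the muscle genes Mhc and bt had differences of 7.82 and 5.26, E(spl)m8-HLH -3.05, E(spl)mgamma-HLH -2.96 and ImpL2 -2.07. Against IntS11, the differences were 0.82 for IntS11, 0.52 for IntS4, 1.55 for E(spl)m7-HLH and -2.29 for srp.

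Against alpha-amanitin, the differences were 8.05 for LanA, 2.66 for RNase P RNA, 2.18 for kay, 1.85 for squ and -1.08 for slam. Smaller ones were 0.52 for Hsp27, 0.67 for fog, -0.88 for IntS1, -0.67 for His3.3B and -0.60 for nanos. Fitted differences of -10.50 for His1:CG31617, 6.19 for E(spl)m7-HLH, 8.74 for mfas and 7.48 for rho rest on groups with 0 to 3 counts and depend on the prior count.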

How the results depend on the processing

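All counts of called genes at 1 to 1.5 h stayed within 1.5 times of the main values: 2278 to 3103 genes higher and 2067 to 2894 lower over size factors, total counts, no filter, DESeq2, only the groups compared, the replicate block and 4 fits that each leave out 1 library. Leaving out 1 library, 2433 to 2682 were higher and 2067 to 2336 lower, and the called members of the lists numbered 571 to 595 against 635. The counts for the difference between windows were less stable: 325 to 518 genes higher and 458 to 598 lower without 1 library, against 613 and 672, with the lowest higher count without WT replicate 2 and 385 without mutant replicate 1. The cause was not tested. No named gene reversed. The calls of hb and snoRNA:U3:54Aa were lost without single libraries and that of BigH1 also with total counts, as given beside them, and no other call of a named gene was lost under any alternative. Deviations of replicate 1 from the group means had a correlation of -0.011 between WT and mutant over 9217 genes. With 2 libraries a group those of replicate 2 mirror them, so this value cannot exclude a collection or batch shared by equal numbers. With the replicate block 2906 genes were higher and 2637 lower. Genes at a few counts are limited by depth, since 3 counts over a group correspond to 0.0933 CPM in WT and 0.0766 CPM in the mutant.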

Other observations

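Several other gene groups held members that moved far. Of 8 genes reported elsewhere as cut short by Integrator in fly cells, 5 were tested, 4 rose and 1 fell. Sirup, a mitochondrial assembly factor, went from 17.8 and 16.6 CPM in WT to 87.2 and 80.1 CPM in the mutant (2.28 ± 0.075), and the metallothionein gene MtnA rose by 2.72 ± 0.43. Of 12 genes of tracheal and epidermal maturation 4 rose and 5 fell. The apical membrane gene uif went from 123 and 116 to 2.83 and 3.07 CPM (-5.33 ± 0.095), and grh, an epidermal transcription factor, from 20.1 and 23.8 to 0.461 and 0.0917 CPM (-6.38 ± 0.32). Of 14 head transcription factors 11 fell and 1 rose, and of 10 gut transcription factors 9 fell and none rose.

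The lists below were called in both directions at shares near those of all tested genes, 31.3% higher and 28.2% lower. Of 20 apoptosis and DNA damage genes 6 rose and 6 fell, with the cell death gene skl going from 0.976 and 0.952 to 23.9 and 25.3 CPM (4.67 ± 0.17). Of 15 genes of the unfolded protein and amino acid responses 4 rose and 5 fell: crc, the fly ATF4, rose by 0.45 ± 0.057 and Atf6 fell from 69.5 and 75.4 to 30.4 and 39.6 CPM (-1.04 ± 0.16). Of 17 glycolysis genes 4 rose and 5 fell, and of 12 zona pellucida domain genes 4 rose and 4 fell. All calls among the zona pellucida domain genes were of at least 2-fold. Of all genes, 13.5% were higher and 10.1% lower by that much, so this list was near all genes in calls but not in size.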
